A study of Mus musculus with 103 samples.

Results

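The wall of the E10.5 mouse forebrain was compared with the facial prominences that lie against it. The comparison takes 16 of the 103 samples of a laser-capture atlas of the early mouse face, chosen by stage and tissue label: 4 libraries of neuroepithelium underlying the lateral nasal prominence, 4 of neuroepithelium underlying the medial nasal prominence, 4 of lateral nasal eminence and 4 of medial nasal prominence. All embryos were outbred CD1 mice with no treatment named in the labels, the embryos were flash frozen and sectioned for laser capture, and each sample was 1 whole-transcript array of amplified RNA. For the 4 medial neuroepithelium samples the title says lateral and the tissue label and source name say medial. They were placed by the tissue label and numbered in accession order. A later comparison adds 5 libraries of E9.5 neuroepithelium and 6 of E9.5 cranial mesenchyme, also from CD1 embryos with no treatment named. The labels do not tie samples to embryos, so libraries may share an embryo and the p-values may be too small.

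At this stage the telencephalic neuroepithelium is a pseudostratified sheet of dividing progenitors that keep SoxB1 factors and Notch signalling on and release the first neurons at its outer face. The nasal prominences beside it are mounds of loose mesenchyme, largely of cranial neural crest origin, covered by surface ectoderm. Their growth depends on transcription factors of the Twist, Msx, Alx and Prrx families and on BMP, WNT, FGF and hedgehog signals passed between brain, ectoderm and mesenchyme.

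Values are log2 of the deposited ratios of each probe set to a common baseline. They compare libraries for 1 gene and give no level between genes. A difference is the mean of both neuroepithelium groups minus the mean of both prominence groups, in log2 units ± SE, and a gene was called when limma's Benjamini-Hochberg adjusted p was under 0.05. Spreads over libraries are SDs. The number of arrays limits the precision.

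The libraries did not all match their neighbours. Lateral eminence 3 correlated over all genes at 0.00 to 0.33 with the other 7 prominence libraries and at -0.05 to 0.38 with neuroepithelium. Those 7 correlated at 0.37 to 0.80 with each other and at -0.26 to 0.36 with neuroepithelium. The neuroepithelium libraries correlated at -0.04 to 0.59 with each other, so low values within a tissue were not confined to lateral eminence 3. The low tail of the arrays moved with the tissue: the 5th percentile of log2 ratios was -2.86 to -1.01 in 7 prominence libraries, -0.32 in lateral eminence 3 and -1.37 to -0.30 in neuroepithelium. The housekeeping list had a mean of -1.74 to -0.52 in those 7 libraries, 0.12 in lateral eminence 3 and -0.09 to 0.38 in neuroepithelium. The cause of this tail was not tested, and the main gene lists below are given also from a fit with the 5th percentile as a covariate. Lateral eminence 4 and medial prominence 2 were the most widely spread of the 16 arrays.

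Neuroepithelium and prominences differed in 4165 of 19938 genes, which is 20.9% of genes tested, and 34.9% had an unadjusted p under 0.05. Of these, 2972 (14.9%) were higher and 1193 (5.98%) lower in neuroepithelium, with a median difference over all genes of 0.05. The split depended on the scaling: after quantile normalization 1526 genes (7.65%) were higher and 1780 (8.93%) lower, and higher calls fell from 71.4% to 46.2% of all calls. With the 5th percentile as a covariate 881 genes (4.42%) were called, of which 584 (2.93%) were higher and 297 (1.49%) lower. Without medial prominence 2 the calls numbered 2652, without lateral eminence 3 they numbered 5263, and with the 4 samples of conflicting label left out they numbered 714. In 24 alternatives run on both neuroepithelium groups, 539 genes (2.7%) kept their call and direction in every one, 401 higher (2.01%) and 138 lower (0.692%). The 8 libraries of one side did not overlap the 8 of the other in 317 genes (1.59%), 241 higher (1.21%) and 76 lower (0.381%), and 288 of them were called (1.44%).

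The markers were checked against both tissue labels. Of 10 measured neuroepithelium markers 7 were higher in neuroepithelium, among them Sox2, Pax6, Fabp7 and Hes5, and 1 was lower. That 1 was Sox1, a SoxB1 factor of neural progenitors, at -0.61 ± 0.22 (adjusted p = 0.036), a call that 12 of 26 alternatives ended and that the covariate brought to -0.07 (adjusted p = 0.88) and quantile normalization to -1.12. Of 11 measured markers of prominence mesenchyme 8 were lower and 0 higher in neuroepithelium by limma, and at an unadjusted p under 0.05 these counts were 9 and 0. The mesenchyme markers had a mean of -1.02 to -0.63 in neuroepithelium and of 0.44 to 2.17 in prominences, with no overlap. All 6 neuron markers were higher in neuroepithelium. In lateral eminence 3 the neuron markers reached 1.01 and the neuroepithelium markers 0.03, the highest of the prominences for both, while its mesenchyme markers at 2.17 were also the highest. In bulk samples such as these, fewer cells of a type and less RNA per cell cannot be told apart.

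Of 23 neural progenitor genes 12 were higher and 2 lower in neuroepithelium (median difference 0.90), and with the covariate 10 were higher and 0 lower. Beside this and each later list stand the shares over all genes, 14.9% higher and 5.98% lower, or 2.93% and 1.49% with the covariate. Here and in the lists that follow, some counts of 3 or fewer rested on single libraries. The 2 lower progenitor genes became 0 without lateral eminence 2, for example, as did the 3 lower Notch genes. Other small counts held in all 24 alternatives run on both neuroepithelium groups, such as the 2 higher proteoglycan genes and the 1 lower hedgehog gene. Fabp7, the brain fatty acid binding protein of radial progenitors, lay at 4.64 to 5.46 (median 5.00) in the 8 neuroepithelium libraries and at -2.39 to 2.18 (median -2.29) in the prominences. The tissues stood apart by 6.16 ± 0.74 (71.3-fold, adjusted p = 1.5e-09), with medial prominence 3 at 2.18 and lateral eminence 3 at 1.67 above the other prominence libraries. Sox2, the SoxB1 factor that maintains neural progenitors, lay at 1.34 to 2.22 (median 1.79) against -4.04 to -0.97 (median -3.66). Its difference was 5.16 ± 0.56 (35.7-fold, adjusted p = 9.7e-11), and the 1 prominence library above -3.40 was again lateral eminence 3. Pou3f2, a POU factor of neural progenitors, lay at 3.28 to 6.13 (median 4.74) against -0.30 to 1.18 (median -0.15), a difference of 4.78 ± 0.59 (adjusted p = 3.1e-09). It has 2 probe sets, whose mean gave 2.26, so the probe set not chosen showed little or no difference. Cdh2, the cadherin that joins neuroepithelial cells, was higher by 1.34 ± 0.28 (adjusted p = 0.0004) with no overlap, and by 0.80 (adjusted p = 0.20) when the samples with conflicting labels were left out.

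**Figure D1:**
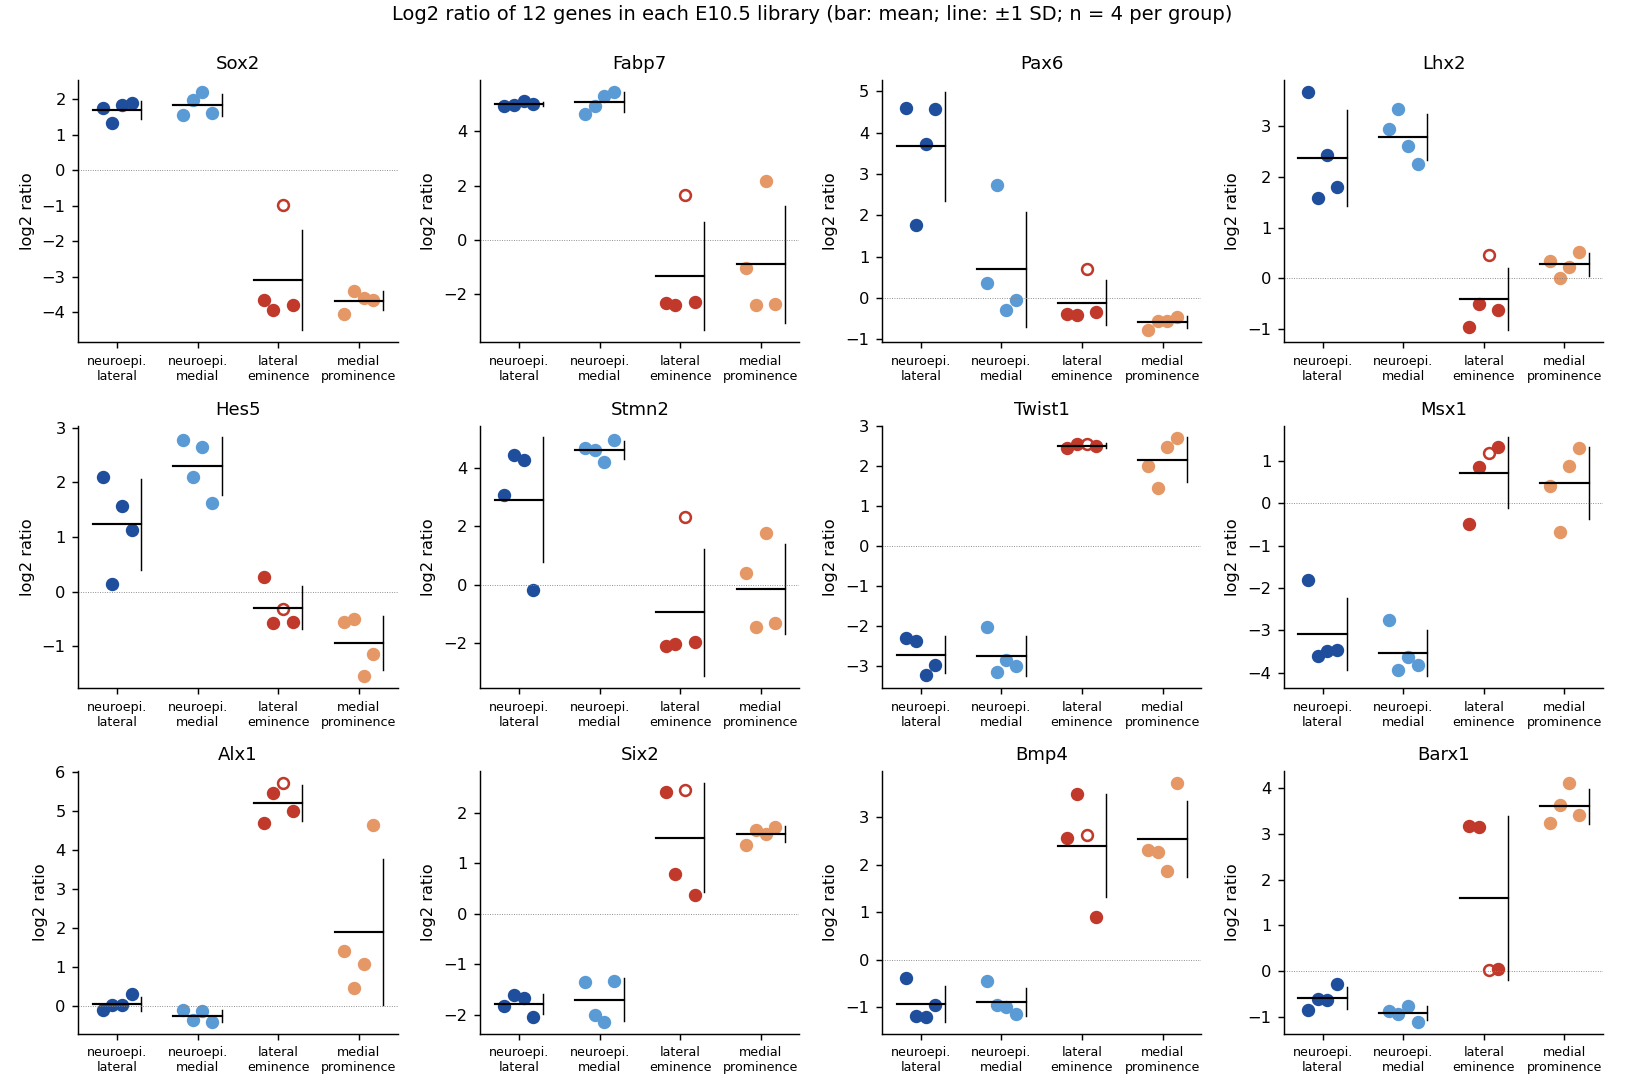
Log2 ratio of 12 genes (vertical axes) in each of the 16 libraries, in 4 groups of 4; black bars are group means, vertical lines ±1 SD, and the open red circle is lateral eminence 3. Sox2, Fabp7 and Lhx2 are above every prominence library in all neuroepithelium libraries, Twist1, Msx1, Alx1, Six2, Bmp4 and Barx1 are below, and for Sox2, Fabp7, Pax6 and Stmn2 the open circle is the highest point of the lateral eminence.

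Forebrain patterning genes were mixed. Of 27 measured, 6 were higher and 1 lower, with a median difference of 0.04, and the covariate left 5 higher and 0 lower. Otx2, the homeobox factor required for forebrain and midbrain, lay at 0.86 to 4.59 (median 3.65) in neuroepithelium and at -1.23 to -0.02 (median -0.73) in prominences. Its difference was 3.76 ± 0.43 (13.5-fold, adjusted p = 2.5e-10). All 4 medial neuroepithelium libraries were at or above 4.00, while the lateral ones lay at 3.31, 1.18, 2.96 and 0.86. Lhx2, the LIM factor of cortex and eye field, lay at 1.59 to 3.68 (median 2.52) against -0.96 to 0.53 (median 0.11), a difference of 2.65 ± 0.46 (adjusted p = 1.8e-05). Nr2e1 (Tlx), a nuclear receptor of forebrain progenitors, was higher by 2.25 ± 0.30 and Meis2, a TALE homeobox factor, by 2.80 ± 0.54.

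Pax6, the paired-box factor of dorsal telencephalon and eye, was not high in every neuroepithelium library. In the lateral neuroepithelium libraries it lay at 4.59, 1.77, 3.73 and 4.57, and in the medial ones at 0.36, 2.74, -0.30 and -0.04. The prominences spanned -0.78 to 0.69, so that 3 of 4 medial libraries fell within their range. Accordingly the call held in the lateral pair (3.78, adjusted p = 0.00095) and not in the medial pair (1.27, adjusted p = 0.21), but the difference of the pairs was not called (2.50 ± 1.04, adjusted p = 0.39). The mean of both pairs, 2.53 ± 0.52, became 4.01 with the conflicting samples left out.

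Of 29 proneural and early neuron genes 16 were higher, 1 lower and 12 not called (median difference 0.35). With the covariate 9 were higher and 0 lower, and after quantile normalization 9 and 1. Stmn2, a microtubule regulator of growing neurites, lay at -0.18 to 4.99 (median 4.38) in neuroepithelium and at -2.12 to 2.32 (median -1.40) in prominences. It was higher by 4.33 ± 0.67 (20.2-fold, adjusted p = 1.6e-06), and the sides overlapped through lateral neuroepithelium 4 at -0.18 on one side and lateral eminence 3, medial prominence 3 and medial prominence 1 at 2.32, 1.78 and 0.39 on the other. Isl1, a LIM factor of newly born neurons, lay at 0.64 to 4.10 (median 3.05) against -0.75 to 0.29 (median -0.48), with a difference of 3.10 ± 0.60 (adjusted p = 0.00012). The neuronal RNA-binding protein gene Elavl3 was higher by 2.89 ± 0.42. Its value in lateral neuroepithelium 4, -0.09, lay within the prominence range of -0.26 to 1.31. Isl1 and Elavl3 were called in the medial pair and not in the lateral pair (adjusted p = 0.12 and 0.069). Stmn3 was higher by 3.95 ± 0.45, or 1.99 as the mean of its 2 probe sets. The Stmn3 probe set not chosen thus showed little or no difference. Other neuronal genes among the 8 largest differences were Tubb2b, a beta tubulin of neural cells, at 4.40 ± 0.57, the intermediate filament gene Ina at 4.27 ± 0.55, and Fez1, an axonal transport adaptor, at 4.24 ± 0.49. The list also includes Mir670hg, a microRNA host gene, at 4.61 ± 0.38 (adjusted p = 2.2e-15), and Hat1, a histone acetyltransferase gene, at 4.38 ± 0.66, or 2.74 with the covariate.

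Notch pathway genes were split. Of 22 measured, 6 were higher and 3 lower (median difference 0.19). The covariate left 3 higher and 0 lower, and those were the 3 genes that kept their call in every one of the 24 alternatives. Hes5, the Notch-induced repressor that holds progenitors undifferentiated, lay at 0.14 to 2.78 (median 1.86) in neuroepithelium and at -1.54 to 0.27 (median -0.56) in prominences. Nrarp, a Notch-induced feedback inhibitor, lay at 0.92 to 2.83 (median 2.26) against -1.49 to 0.17 (median -0.46). The differences were 2.37 ± 0.32 (adjusted p = 3e-08) for Hes5, where lateral neuroepithelium 2 at 0.14 overlapped lateral eminence 1 at 0.27, and 2.45 ± 0.32 (adjusted p = 2.1e-08) for Nrarp, with no overlap. Mfng, which glycosylates Notch receptors, was higher by 3.01 ± 0.46, or 1.88 (adjusted p = 0.048) with the conflicting samples left out.

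The promoters of Hes5 and Nrarp are shown because both genes are textbook Notch targets and were higher together. Each line gives the 250 bases before the RefSeq start on the plus strand of GRCm38.p6, at chr4:154960673-154960922 for Hes5 and chr2:25180508-25180757 for Nrarp, with matches to the RBPJ motif GTGGGAA on either strand in capitals.
Hes5: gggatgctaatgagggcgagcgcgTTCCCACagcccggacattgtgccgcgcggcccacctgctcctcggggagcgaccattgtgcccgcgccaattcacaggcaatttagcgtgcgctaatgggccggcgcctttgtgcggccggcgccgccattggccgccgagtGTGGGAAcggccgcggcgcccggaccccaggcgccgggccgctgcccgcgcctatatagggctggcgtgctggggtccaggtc
Nrarp: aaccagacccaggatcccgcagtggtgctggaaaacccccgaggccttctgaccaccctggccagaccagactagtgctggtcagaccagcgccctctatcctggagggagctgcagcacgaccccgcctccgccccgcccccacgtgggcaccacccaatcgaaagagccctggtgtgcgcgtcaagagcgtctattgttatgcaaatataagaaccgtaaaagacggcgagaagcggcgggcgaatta
Hes5 has 2 matches, 1 on the minus strand that begins 226 bases before the start and 1 on the plus strand that begins 83 bases before it. Nrarp has 0 in this window. The motif, which has 7 letters with no overlap to another motif searched, occurs in 5.42% of 32851 RefSeq windows of the same length. A match is a description of the letters and not of binding.

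Of 24 frontonasal mesenchyme genes 15 were lower and 2 higher in neuroepithelium (median difference -0.58). With the covariate 8 were lower and 1 higher, and after quantile normalization 17 were lower and 0 higher. Msx1, a homeobox factor of facial mesenchyme and a BMP target, lay at -3.95 to -1.82 (median -3.55) in neuroepithelium and at -0.68 to 1.34 (median 0.87) in prominences. It was lower by 3.92 ± 0.43 (15.2-fold, adjusted p = 1e-10), with lateral neuroepithelium 1 at -1.82 the nearest to the prominences. Alx1, a frontonasal homeobox factor, lay at -0.40 to 0.31 (median -0.11) against 0.46 to 5.71 (median 4.66). Its difference of -3.65 ± 0.43 (adjusted p = 8.9e-10) is a mean over both prominences, whose separate values are given with the pairs. Six2, a homeobox factor of facial mesenchyme, lay at -2.14 to -1.33 (median -1.74) against 0.38 to 2.45 (median 1.63), a difference of -3.29 ± 0.42 (adjusted p = 6.3e-09). Prrx1, a paired-related factor of limb and face mesenchyme, lay at -1.02 to 0.92 (median -0.84) against -0.16 to 4.36 (median 2.53), a 7.99-fold difference (adjusted p = 2.5e-08), and its paralog Prrx2 was lower by 2.70 ± 0.41.

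Of 29 genes of mesenchyme at large and of neural crest, 11 were lower, 2 higher and 16 not called (median difference -0.28), with 9 lower and 2 higher under the covariate. Twist1, a bHLH factor of crest-derived mesenchyme, lay at -3.22 to -2.02 (median -2.91) in neuroepithelium and at 1.45 to 2.70 (median 2.48) in prominences. Its difference was -5.06 ± 0.50 (33.3-fold, adjusted p = 1.6e-12), the largest of the lower genes named. Lateral eminence 3, which stood apart for Sox2 and Fabp7, at 2.55 lay for Twist1 among the other lateral eminence libraries at 2.43, 2.54 and 2.49. Twist2 lay at -1.56 to -0.76 (median -1.23) against 1.25 to 3.23 (median 2.65), a difference of -3.61 ± 0.44. Snai1, a repressor of epithelial cadherin, was lower by 2.09 ± 0.35 and Tcf15, a bHLH factor of paraxial mesoderm, by 2.10 ± 0.36. Against this direction, Zeb2, another E-box repressor, was higher in neuroepithelium by 0.73 ± 0.11 (1.66-fold, adjusted p = 3.6e-07). Among the 8 largest lower differences the rule also named Inka1, a kinase inhibitor, at -3.91 ± 0.56 and Gng8, a G protein gamma subunit, at -3.55 ± 0.59. For Gng8, medial neuroepithelium 2 at 3.80 lay just below the lowest prominence library at 3.86, and medial neuroepithelium 1 was at 2.60. The other neuroepithelium libraries lay at -0.28 to 0.55 for Gng8.

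**Figure D2:**
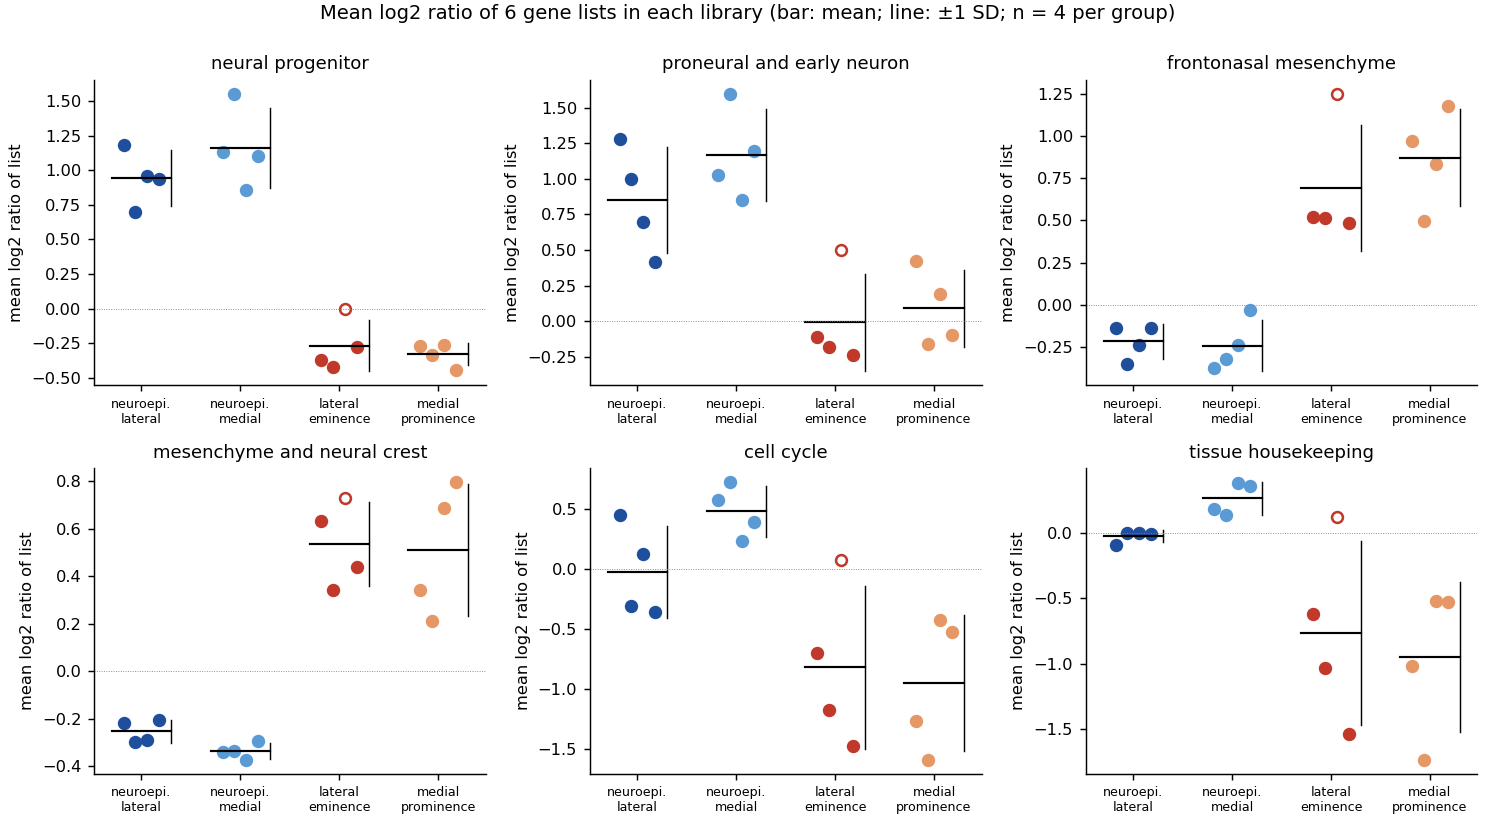
Mean log2 ratio over the measured members of 6 gene lists (vertical axes) in each library, in 4 groups of 4; black bars are group means, vertical lines ±1 SD, and the open red circle is lateral eminence 3. The neural progenitor means (0.69 to 1.55 in neuroepithelium) and both mesenchyme lists separate the tissues in all libraries, while for cell cycle and housekeeping the open circle lies with neuroepithelium.

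Matrix genes differed by smaller steps. Of 39 collagen and matrix genes 8 were lower and 1 higher in neuroepithelium (median difference -0.19), and the covariate left 7 lower and 0 higher. Col3a1, a fibrillar collagen of loose connective tissue, lay at -0.62 to 0.12 (median -0.41) against 0.19 to 0.64 (median 0.46). The tissues did not overlap, yet the difference was -0.76 ± 0.20 (1.69-fold, adjusted p = 0.0048), and adjusted p was 0.17 with the conflicting samples left out. Col1a2, a chain of type I collagen, was lower by 0.96 ± 0.22, Col26a1 by 1.11 ± 0.23 and the microfibril gene Mfap4 by 0.91 ± 0.25. After quantile normalization Col3a1, Col1a2 and Col26a1 were lower by 1.4, 1.62 and 1.89. Of 25 proteoglycan and linker genes 2 were higher and 4 lower, and 2 lower without lateral eminence 2 or lateral neuroepithelium 3. The 2 higher lay below the share over all genes (14.9%). Gpc4, a glypican that binds morphogens, was higher by 2.72 ± 0.45 (6.61-fold, adjusted p = 7.7e-06) with no overlap, Ptprz1, a chondroitin sulphate proteoglycan of radial progenitors, was higher by 1.09 ± 0.24, and Has2, the hyaluronan synthase, was lower by 0.28 ± 0.07, or by 0.45 after quantile normalization. When the conflicting samples were left out, Mfap4 (adjusted p = 0.061) and Has2 (adjusted p = 0.075) no longer passed.

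Of 38 BMP and TGF beta genes 10 were lower, 3 higher and 25 not called (median difference -0.22), with 6 lower and 2 higher under the covariate. The 10 became 6 when lateral eminence 2, lateral eminence 4 or medial neuroepithelium 4 was left out. Bmp4, the ligand of facial ectoderm and mesenchyme, lay at -1.20 to -0.38 (median -0.97) against 0.90 to 3.71 (median 2.44), a difference of -3.37 ± 0.64 (10.3-fold, adjusted p = 0.00011) with no overlap. Id1, a BMP-induced inhibitor of bHLH factors, lay at -4.68 to -0.89 (median -2.19) against -1.24 to 0.70 (median 0.05), a difference of -2.41 ± 0.37 (adjusted p = 1.2e-06) with overlap. Its family member Id4 went the other way and lay at 3.06 to 4.23 (median 3.45) against -0.31 to 0.97 (median 0.40). Id4 was higher by 3.18 ± 0.29 (9.07-fold, adjusted p = 1.1e-13) with no overlap. The BMP antagonist gene Nog was higher by 1.32 ± 0.34 (adjusted p = 0.004), which fell to 0.61 (adjusted p = 0.45) with the conflicting samples left out and did not pass with the 4 groups fitted alone (adjusted p = 0.052).

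Of 41 WNT genes 9 were lower and 4 higher (median difference -0.21), with 5 and 2 under the covariate. The 4 higher lay below the share over all genes (14.9%), and the 9 lower lay above theirs (5.98%). The 4 became 2 without lateral eminence 2, lateral neuroepithelium 1, medial prominence 1 or medial neuroepithelium 2. Rspo2, a secreted WNT enhancer, was lower by 0.98 ± 0.20 (by 1.57 after quantile normalization), the secreted WNT modulator Sfrp1 was higher by 2.01 ± 0.41 (1.31 with the covariate), and the ligand Wnt7a was higher by 0.82 ± 0.18 (adjusted p = 0.00073), or adjusted p = 0.069 with the 4 groups fitted alone. Of 29 FGF genes 2 were higher and 1 lower, both below the shares over all genes (14.9% and 5.98%), with 3 lower without lateral eminence 3. Fgf15, an FGF ligand of the early brain, lay at 2.48, 2.83, -0.41 and -0.08 in lateral neuroepithelium, at 4.48, 4.00, 4.31 and 1.92 in medial neuroepithelium and at -0.99 to -0.21 in prominences. Its difference was 3.07 ± 0.34 (8.37-fold, adjusted p = 1.4e-10), although lateral neuroepithelium 3 lay within the prominence range and lateral neuroepithelium 4 just above it. Without the conflicting samples Fgf15 was at 1.83 (adjusted p = 0.003), and the lateral pair was not called (1.71, adjusted p = 0.052).

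Of 16 hedgehog genes 1 was lower, near the 5.98% of all genes, and 0 higher (2 higher at an unadjusted p under 0.05 by limma). That 1 was Cdon, a coreceptor for Sonic hedgehog, at -2.65 ± 0.65 (adjusted p = 0.0024), and adjusted p was 0.062 with the conflicting samples left out. Of 18 retinoic acid genes 3 were lower and 1 higher, and without lateral eminence 3 only 1 was lower. Crabp1, a retinoic acid binding protein, was lower by 1.84 ± 0.35 (3.59-fold, adjusted p = 0.00013). It was called in the lateral pair (-2.77, adjusted p = 0.00024) and not in the medial pair (-0.92, adjusted p = 0.18). The difference of the pairs was not called (adjusted p = 0.35). Of 20 PDGF and IGF genes 3 were higher, near the 14.9% of all genes, and 2 lower. Igf1, the growth factor ligand, lay at -0.59 to 0.04 (median -0.31) in neuroepithelium and at 0.41 to 4.82 (median 4.39) in prominences, a difference of -3.81 ± 0.42 (14.0-fold, adjusted p = 1e-10). Lateral eminence 1 at 0.78 and medial prominence 2 at 0.41 lay below the other 6 prominence libraries, which were at 4.07 or more. The imprinted gene Dlk1 was higher by 1.89 ± 0.44 (adjusted p = 0.0013), or 1.23 (adjusted p = 0.20) with the conflicting samples left out.

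Adhesion and guidance lists lay near or below the share over all genes. Of 12 classical cadherins and partners 1 was higher and 0 lower (1 lower at an unadjusted p under 0.05 by limma), of 18 protocadherins 1 was higher and 1 lower, and of 25 polarity and junction genes 2 were higher and 0 lower (1 at an unadjusted p under 0.05). Of 44 axon guidance and ephrin genes 3 were higher and 2 lower. Pcdh19, a delta protocadherin, was higher by 1.81 ± 0.40 (adjusted p = 0.00073) and Ephb1, an ephrin receptor, by 1.36 ± 0.17 (adjusted p = 2.4e-09), or 0.79 (adjusted p = 0.01) with the conflicting samples left out.

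The cell cycle and metabolic lists lost most of their calls with the covariate, and so did all genes, where higher calls fell from 14.9% to 2.93%. Of 26 cell cycle genes 16 were higher and 1 lower in neuroepithelium (median difference 1.36), of 15 hypoxia and glycolysis genes 7 and 1, and of 11 housekeeping genes 5 and 0 (7 higher and 1 lower at an unadjusted p under 0.05 by limma). With the covariate these counts were 3 and 0, 3 and 0, and 2 and 0. The median difference of the hypoxia and glycolysis list rose from 0.47 to 0.61. That of cell cycle fell to 0.41 and that of housekeeping from 0.65 to 0.16. Mcm6, a subunit of the replicative helicase, lay at -0.58 to 1.10 (median 0.26) in neuroepithelium and at -4.44 to -0.46 (median -2.70) in prominences. It was higher by 2.78 ± 0.57 (adjusted p = 0.00031), and by 1.16 (adjusted p = 0.038) with the covariate. Sdha, a mitochondrial enzyme used as a housekeeping gene, lay at 0.32 to 1.77 (median 1.01) against -2.13 to 0.36 (median -1.55), with lateral eminence 3 the 1 overlapping library. It was higher by 2.32 ± 0.45 (adjusted p = 0.00016) and by 1.17 (adjusted p = 0.026) with the covariate. The cyclin gene Ccna2 went from 2.35 to 1.16, the glycolytic genes Ldha from 1.68 to 0.91 and Pgk1 from 1.58 to 1.10, and the nucleotide salvage gene Hprt from 2.86 to 1.39, where it no longer passed (adjusted p = 0.20). After quantile normalization Ccna2, Ldha and Hprt were at 1.5, 1.1 and 1.68. For Fabp7 the covariate gave 5.32, for Sox2 4.48 and for Twist1 -4.99.

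**Figure D3:**
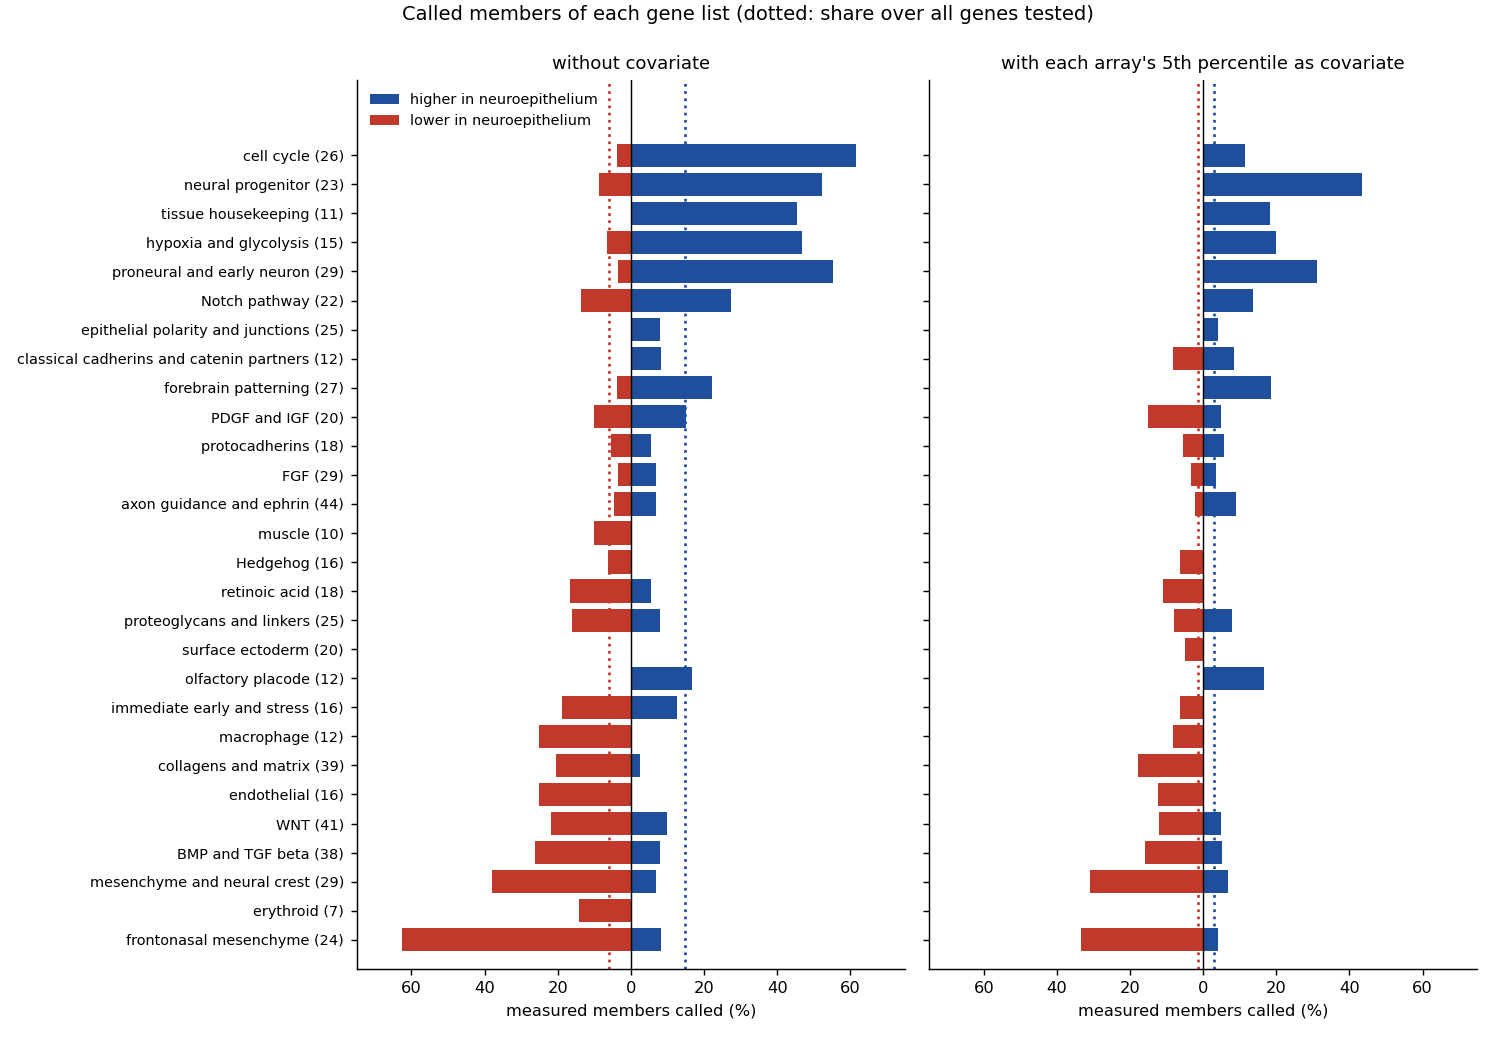
Percent of the measured members of each gene list (number in brackets) called higher (blue, right) or lower (red, left) in neuroepithelium, without (left panel) and with (right panel) each array's 5th percentile as a covariate; dotted lines are the shares over all genes tested. The cell cycle bar shrinks from 16 of 26 to 3 of 26 members, the neural progenitor bar from 12 to 10 of 23, and the mesenchyme and neural crest bar from 11 to 9 of 29.

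Markers of other cell types that a capture could hold were counted too. Of 10 measured surface and olfactory ectoderm markers 0 were called by limma in either direction (1 lower at an unadjusted p under 0.05), with means of -0.87 to -0.10 in neuroepithelium and -0.58 to 0.52 in prominences. Of 8 endothelial markers 0 were called (2 lower at an unadjusted p under 0.05), with means of -0.17 to 0.77 against -0.14 to 1.13. Of 7 macrophage markers 2 were lower in neuroepithelium, with means of -0.11 to 0.55 against 0.14 to 0.95. The highest of each of these 3 prominence ranges was lateral eminence 3. Of 6 erythroid markers 1 was lower. In the larger lists 4 of 16 endothelial and 3 of 12 macrophage genes were lower, beside 5.98% of all genes. By limma 0 were higher, also at an unadjusted p under 0.05. After quantile normalization 8 and 4 were lower, beside 8.93% of all genes, and with the covariate 2 and 1, beside 1.49%. The endothelial count of 4 became 2 without lateral eminence 4 or medial prominence 1. Plvap, a gene of fenestrated endothelium, was lower by 1.00 ± 0.23 (adjusted p = 0.0011) with no overlap, and by 1.54 after quantile normalization. Tyrobp, a myeloid signalling adaptor, was lower by 1.84 ± 0.38 (adjusted p = 0.00034), with lateral neuroepithelium 3 at 3.93 above every prominence library but lateral eminence 2 at 4.43. Without the conflicting samples adjusted p was 0.090 for Plvap and 0.071 for Tyrobp, and 0.069 for Tyrobp with the 4 groups fitted alone. The part of these cells in the results was not tested.

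The lateral and the medial pair were then fitted apart. In the lateral pair 233 genes were called (1.17%), 149 higher (0.747%) and 84 lower (0.421%), with 12.3% of genes at an unadjusted p under 0.05. In the medial pair 4205 were called (21.1%), 3039 higher (15.2%) and 1166 lower (5.85%), with 35.3% at an unadjusted p under 0.05. These counts followed single libraries: without lateral eminence 3 the lateral pair had 723 calls, without lateral eminence 2 it had 107, without lateral eminence 4 it had 109 and without lateral neuroepithelium 3 it had 135. The medial pair had 1521 calls without medial prominence 2, 2445 without medial prominence 1 and 2767 without medial neuroepithelium 2. With the covariate the pairs had 270 and 446 calls. Of the 233 lateral calls 149 were called in the same direction in the medial pair (63.9% of lateral and 3.54% of medial calls) and 0 in the opposite one. The genes called in both were 112 higher (0.562%) and 37 lower (0.186%).

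Between the pairs themselves 8 genes differed by the test of the difference (0.0401% of genes tested), 4 in each direction (0.0201% each), with 2050 genes (10.3%) at an unadjusted p under 0.05. The 8 became 18, 21, 23, 13 and 15 without medial prominence 3, medial prominence 4, lateral neuroepithelium 1, medial neuroepithelium 1 and medial neuroepithelium 3, and 5 without lateral neuroepithelium 3. Lrrc58, a leucine-rich repeat gene, kept its call in all 24 alternatives run for this test. It lay at 0.50, 0.01, 0.34 and 0.32 in lateral neuroepithelium and -0.04, 0.10, 0.03 and -0.16 in lateral eminence, and at -0.02, -0.01, -0.12 and -0.10 in medial neuroepithelium and 0.60, 0.50, 0.55 and 0.55 in medial prominence. The difference was 0.31 laterally (not called, adjusted p = 0.25) and -0.62 medially (adjusted p = 0.00039). The pairs differed by 0.93 ± 0.18 (adjusted p = 0.0073). Hpgd, a prostaglandin dehydrogenase, differed by -2.37 ± 0.47 (adjusted p = 0.009). Its lateral eminence libraries lay at 0.72, 0.93, 4.44 and 0.77, and without lateral eminence 3, the library at 4.44, the value was -1.46 (adjusted p = 0.047). With the 4 groups fitted alone Hpgd was not called (adjusted p = 0.39). Nol3, an apoptosis repressor, differed by -1.75 ± 0.34 (adjusted p = 0.009) through medial neuroepithelium 3 at 2.66 and 4 at 1.90. Without medial neuroepithelium 3 its adjusted p was 0.067, and without medial neuroepithelium 4 it was 0.051. Nol3 was also not called after quantile normalization (-1.46, adjusted p = 0.17) or with the 4 groups fitted alone (adjusted p = 0.35). Gca, Ucma and Rnase2b, at -1.83, 0.85 (1.29 after quantile normalization) and 0.53, lost the call in 15, 13 and 11 of 24 alternatives.

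For some mesenchyme factors the values of the lateral eminence and the medial prominence lay apart. The prominences were not tested against each other, and the test of the difference of pairs did not call these genes. Alx1 lay at 4.69, 5.47, 5.71 and 4.99 in the lateral eminence and at 1.41, 0.46, 1.07 and 4.63 in the medial prominence. Its difference was -5.15 in the lateral pair and -2.14 in the medial pair, which differed by -3.01 ± 0.86 (adjusted p = 0.20). Barx1, a homeobox factor of facial and stomach mesenchyme, lay at 3.16, 3.15, 0.03 and 0.06 in the lateral eminence and at 3.24, 3.63, 4.10 and 3.41 in the medial prominence. The pairs gave -2.19 and -4.50, a difference of 2.31 ± 0.75 (adjusted p = 0.27). Lateral eminence 3 and 4 thus lay just above the neuroepithelium range, which ended at -0.27, while lateral eminence 1 and 2 lay next to the medial prominence.

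**Figure D4:**
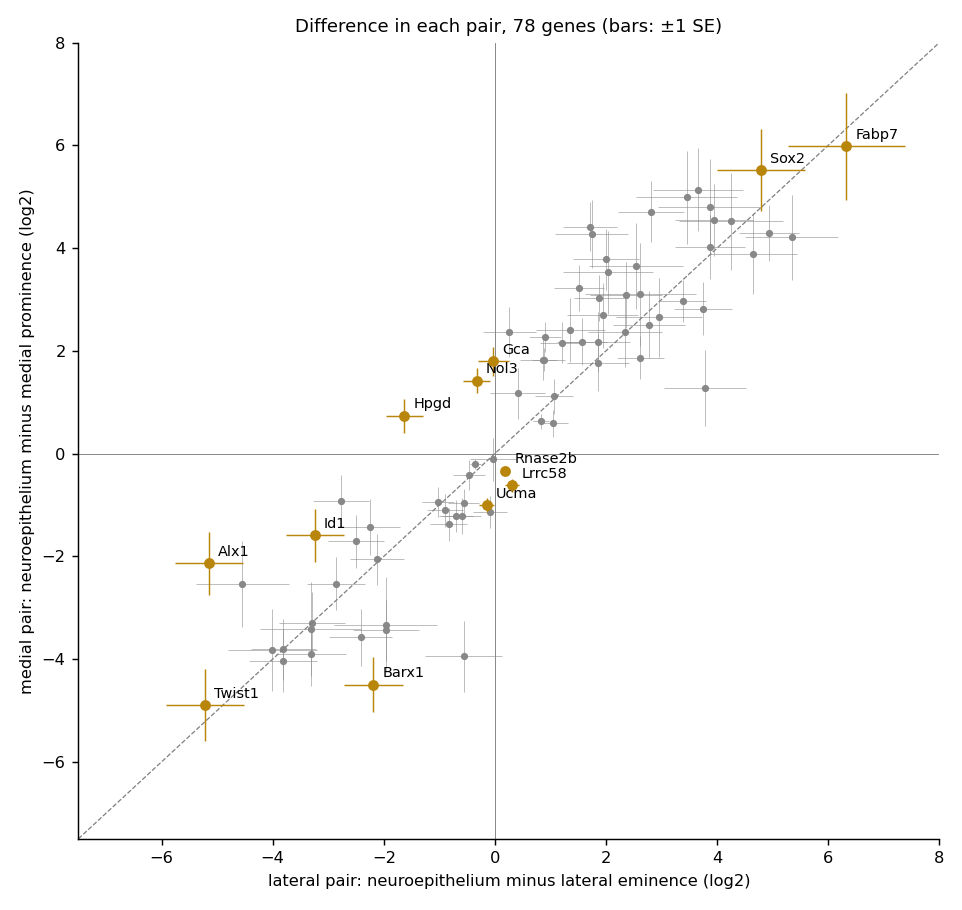
Difference in the medial pair (vertical axis, log2) against that in the lateral pair (horizontal axis, log2) for the 78 genes examined, with ±1 SE and a dashed line of equality; gold points are named. Fabp7, Sox2 and Twist1 lie near the line, Hpgd, Gca and Nol3 lie above it, and Alx1 (-5.15, -2.14) and Barx1 (-2.19, -4.50) lie on opposite sides.

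The last comparison set these differences beside those a day earlier, between E9.5 neuroepithelium and E9.5 cranial mesenchyme. The stages share no samples, and the tissue labels differ: cranial mesenchyme at E9.5 and nasal prominences, which can hold ectoderm too, at E10.5. The difference changed between stages in 71 genes (0.356%), 40 more positive (0.201%) and 31 more negative (0.155%) at E10.5, with 11.6% of genes at an unadjusted p under 0.05. This count was 179 without lateral eminence 3 and 26 without E9.5 neuroepithelium 3. It was 33, 37, 38, 41, 44, 46, 46 and 124 without E9.5 neuroepithelium 5, cranial mesenchyme 2, medial prominence 2, lateral eminence 4, lateral eminence 2, cranial mesenchyme 3, medial neuroepithelium 4 and E9.5 neuroepithelium 1. Of the core factors, Sox2 differed by 3.11 at E9.5 and 5.16 at E10.5, Twist1 by -4.55 and -5.06, and Alx1 by -4.41 and -3.65. None of those 3 changes passed (adjusted p = 0.34, 0.86 and 0.71), and neither did that of Fabp7, from 2.43 to 6.16 (adjusted p = 0.14).

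Barx1, the homeobox factor above, was at -0.44 ± 0.42 (n = 6) in E9.5 cranial mesenchyme and -0.64 ± 0.47 (n = 5) in E9.5 neuroepithelium, and at E10.5 at 2.6 ± 1.6 (n = 8) in prominences and -0.75 ± 0.25 (n = 8) in neuroepithelium. The change of -3.14 ± 0.59 (adjusted p = 0.0022) was called in all 37 alternatives. Mab21l2, a gene of eye and facial mesenchyme, lay at 2.55, 2.89, 3.66 and 4.16 in the medial prominence and at -0.26 to 0.56 in the lateral eminence. Over all prominences Mab21l2 was at 1.74 ± 1.77 (n = 8) against 0.07 ± 0.94 (n = 6) in E9.5 mesenchyme, and neuroepithelium was at -0.52 ± 0.24 (n = 8) against 1.64 ± 1.99 (n = 5) at E9.5. Its change was -3.83 ± 0.76 (adjusted p = 0.0052), with adjusted p = 0.054 where the compared groups were fitted alone. Irx3, an Iroquois factor named after its values were seen, was at 1.14 ± 0.52 (n = 6) in E9.5 mesenchyme and 1.42 ± 0.48 (n = 8) in E10.5 prominences. In neuroepithelium it was at 1.19 ± 1.31 (n = 5) at E9.5 and -1.28 ± 0.24 (n = 8) at E10.5, a change of -2.74 ± 0.58 (adjusted p = 0.0093), with adjusted p = 0.05 without E9.5 neuroepithelium 3 and 0.057 with the conflicting samples left out.

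On the neural side Pou3f4, a POU factor of the neural tube, was at 3.92 ± 0.84 (n = 5) in E9.5 neuroepithelium and 0.81 ± 1.07 (n = 8) at E10.5, while E9.5 mesenchyme lay at -0.01 ± 0.21 (n = 6) and prominences at 0.02 ± 0.19 (n = 8). The change of -3.14 ± 0.54 (adjusted p = 0.00061) was called in all 37 alternatives. Nkx6-2 and En2, named after their values were seen, were also at their highest in E9.5 neuroepithelium. Nkx6-2, a homeobox factor of the ventral neural tube, was at 1.96 ± 1.08 (n = 5) in E9.5 and 0.19 ± 0.45 (n = 8) in E10.5 neuroepithelium, a change of -2.30 ± 0.32 (adjusted p = 7.9e-06). En2, a factor of the midbrain and hindbrain boundary, spanned -0.10 to 4.68 over the 5 E9.5 neuroepithelium libraries and -0.29 to 0.13 in the 8 at E10.5, a change of -2.78 ± 0.46 (adjusted p = 0.00045). Its adjusted p was 0.17 with the compared groups alone. The E9.5 label names no region of the brain, so stage and position cannot be told apart.

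In the other direction, Hat1 changed by 4.30 ± 1.04 (adjusted p = 0.036) and Eif3e, a translation initiation factor subunit, by 4.24 ± 1.01 (adjusted p = 0.032). The prominences differed most from their earlier counterpart: Hat1 was at -3.74 ± 1.97 (n = 8) in prominences and -0.18 ± 0.31 (n = 6) in E9.5 mesenchyme, and Eif3e at -4.14 ± 2.59 (n = 8) and -0.35 ± 0.52 (n = 6). Eif3e was at -6.64, the smallest ratio of the table, in lateral eminence 2 and 4, and at -0.31 in lateral eminence 3. These calls were lost in 16 of 37 and 9 of 36 alternatives. Of the guidance list, Ephb1 changed in the same direction by 1.18 ± 0.26 (adjusted p = 0.015). So did a few genes named after their values were seen: Mir670hg by 3.21 ± 0.60, Npas3, a bHLH-PAS factor of neural tissue, by 2.92 ± 0.58 and the sphingosine receptor gene S1pr1 by 2.49 ± 0.51. Mir670hg, Npas3, S1pr1 and Ephb1 lost the call with the compared groups alone, at adjusted p of 0.064, 0.13, 0.14 and 0.11. Ephb1 was also not called with the conflicting samples left out (0.61, adjusted p = 0.62) or with the mean of its probe sets (0.85, adjusted p = 0.22). For Npas3 the mean of its 2 probe sets gave 1.47, so the probe set not chosen showed little or no change. Pgk1, of the glycolysis list, changed by 1.5 (adjusted p = 0.013), with 0.87 after quantile normalization, and was not called with the compared groups alone (adjusted p = 0.16) or the conflicting samples left out (adjusted p = 0.1). Npas3 was at 0.74 ± 1.02 (n = 5) in E9.5 and 3.48 ± 1.38 (n = 8) in E10.5 neuroepithelium, and at 3.43 ± 1.07 (n = 4) in the E10.5 control neuroepithelium of the atlas.

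**Figure D5:**
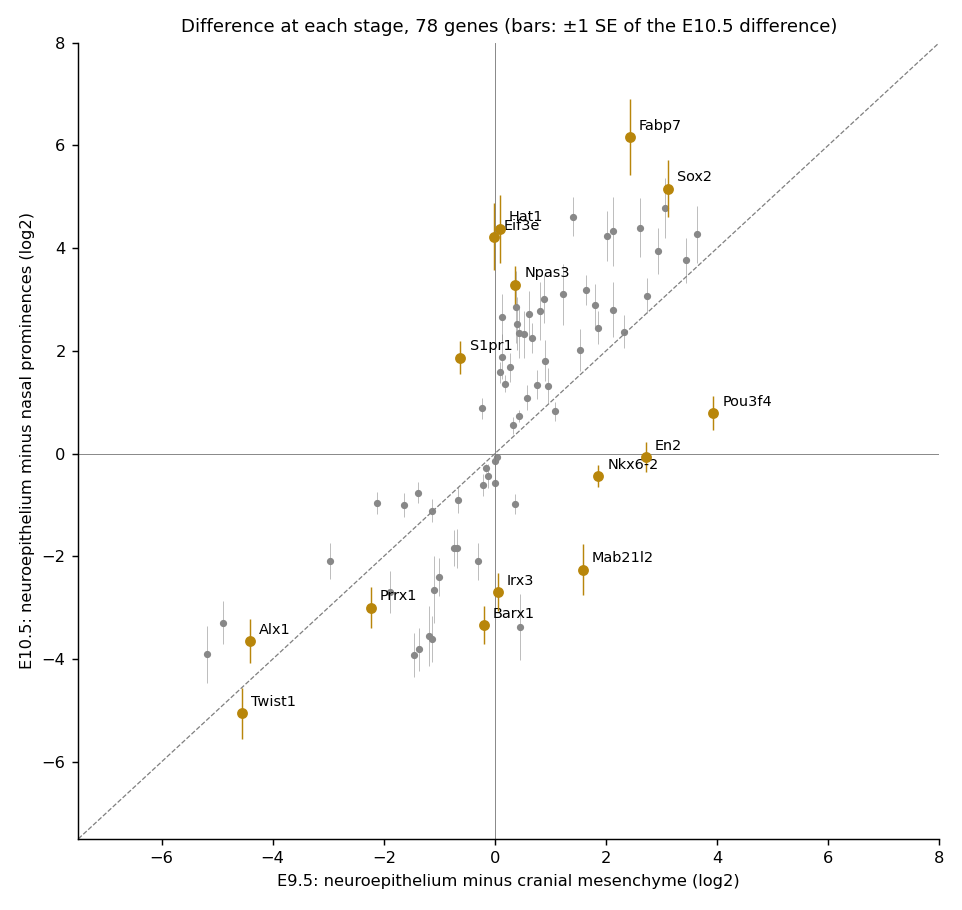
Difference at E10.5 (vertical axis, log2, ±1 SE) against that at E9.5 (horizontal axis, log2) for the same 78 genes, with the line of equality; gold points are named. Twist1 (-4.55, -5.06), Alx1 and Prrx1 lie near the line, Barx1, Irx3, Mab21l2, Nkx6-2, En2 and Pou3f4 below it, and Fabp7, Sox2, Npas3, S1pr1, Hat1 and Eif3e above it.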

How the data were processed

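Gene expression was measured on Affymetrix Mouse Gene ST arrays. The deposited table holds linear ratios of 35557 probe sets; per the submitters' processing notes RMA was used and the build named is mm9, with no version given. The median ratio over 21 samples was 1 for every probe set, within 6e-08, and 2 of those 21 were among the 16 compared. What those samples share is not stated in the sources used here. Log2 of the deposited ratios was taken. Of 28856 probe sets with values, 21789 have 1 gene symbol, 1621 several and 5446 none. Where a gene had more than 1 probe set (999 genes), that of greatest mean log2 ratio stood for it, leaving 19938 genes. One model over 22 groups and 102 samples (80 residual degrees of freedom) was fitted with limma 3.58.1 in R 4.3.3, with Benjamini-Hochberg adjustment within each comparison. The fit was also run on simulated data with independent normal noise and, for each gene, the same SD in every group. Those data lack the low array tail and the unequal spreads seen here, so that run cannot show whether these calls hold. Genes named are, per direction, the top 8 by size of difference among calls without overlap, called members of each list, and for the other comparisons the 6 largest of each direction, with predicted genes passed over and some left out for length. Members and lists were chosen with earlier results of these data known. Alternatives were array weights, quantile normalization, the mean of probe sets, a variance trend, compared groups alone, a replicate block, other handling of conflicting labels, wide arrays left out, the 5th percentile as a covariate, genes at the smallest ratio left out, and each library left out. Promoters are RefSeq sequence of GRCm38.p6, whose coordinates were not mixed with mm9.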

Additional observations from a re-analysis of the deposited data

Results flagged for a closer look

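Of 228 groups of 4 values tested, 15 held a value far from the other 3 by Dixon's criterion, which chance gives in about 1 in 20 groups. The groups tested did not cover all genes named, so these 15 are not every far value. Untested examples are Ina in lateral eminence 3 at 1.04 (others -1.72 to -1.67) and Inka1 in lateral eminence 4 at -0.17 (1.86 to 1.98). Among the 15, lateral eminence 3 accounted for most. It lay at -0.97 for Sox2 (others -3.93 to -3.66), 1.67 for Fabp7 (-2.38 to -2.27), 1.18 for Pou3f2 (-0.21 to 0.03), 0.69 for Pax6 (-0.41 to -0.34), 2.32 for Stmn2 (-2.12 to -1.99), 0.29 for Isl1 (-0.69 to -0.59) and 4.44 for Hpgd (0.72 to 0.93). Its mean was 1.25 over the frontonasal list (0.48 to 0.52) and -0.13 over the hypoxia and glycolysis list (-0.88 to -0.77). The flagged neural genes and the frontonasal mean were thus high in this 1 library. Not all mesenchyme genes were: Barx1 (0.03) and Tcf15 (1.00) were lower there than in any other prominence library. Medial prominence 2 was at 0.41 for Igf1 (4.31 to 4.71). Lateral neuroepithelium 1 was at -1.82 for Msx1 (-3.60 to -3.46), 0.29 over the PDGF and IGF list (-0.24 to -0.17) and -0.09 over the housekeeping list (-0.01 to 0.00). Medial neuroepithelium 3 was at 4.59 for Otx2 (4.00 to 4.07), and medial neuroepithelium 2 at 0.28 over the axon guidance list (0.03 to 0.06).

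The difference between lateral and medial pair passed its own test for Hpgd (-2.37), Gca (-1.83), Nol3 (-1.75), Lrrc58 (0.93), Ucma (0.85) and Rnase2b (0.53). The difference between stages passed for Mab21l2 (-3.83), Barx1 (-3.14), Pou3f4 (-3.14), En2 (-2.78), Irx3 (-2.74) and Nkx6-2 (-2.30), all more negative at E10.5. It passed in the other direction for Hat1 (4.30), Eif3e (4.24), Mir670hg (3.21), Npas3 (2.92), S1pr1 (2.49), Pgk1 (1.5) and Ephb1 (1.18).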

How the results depend on the processing

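Of 65 genes named for neuroepithelium against prominences, 53 kept direction and call in all 26 alternatives, 7 lost the call only when the conflicting samples were left out, and 0 reversed. Apart from these 26, in the 3 groups that share numbers 39 of the 65 lost the call with the replicate block and 33 in the same samples without it. The count of 4165 calls became 714 with conflicting samples left out, 2752 with wide arrays left out, 881 with the covariate, and 2652 to 5263 without single libraries. For the lateral pair 233 became 367 after quantile normalization, 675 with array weights, 85 with the groups alone, 1186 with the conflicting samples counted as lateral, and 107 to 723 without single libraries. For the medial pair 4205 became 2728 with wide arrays left out, 446 with the covariate, and 1521 to 4543 without single libraries. The difference of pairs had 8 calls, 19 with array weights, 4 with the groups alone, 14 with wide arrays left out, and 5 to 23 without single libraries. The stage difference had 71, 215 after quantile normalization, 620 with array weights, 16 with the groups alone, 28 with conflicting samples left out, and 26 to 179 without single libraries. Whether equal title numbers pair the samples was not tested. Correlations of same-numbered deviations ran from -0.30 to 0.48, and 5 of 12 samples correlated best with their own number. In the 3 groups that share numbers, the replicate block gave 166 calls against 157 without it, and in the lateral pair 32 against 50. Ratios near the smallest value of 0.01 set no order among the lowest genes.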
